A study of Mus musculus with 14 samples.

Results

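The sterol and fatty acid synthesis genes examined here are 34 mouse genes that make cholesterol and fatty acids, sense sterol or export it. They were chosen by name, as a pathway, and not by their values. Of the 34, 25 are targets of the SREBP transcription factors, 4 encode the SREBP machinery, 2 encode the sterol receptors LXR alpha and LXR beta, and 3 (Abca1, Abcg1 and Mylip) are LXR targets. All 34 were listed in the tables of all 3 experiments, which had 13920 genes in common. A gene was tested where its mean over the libraries of an experiment reached 1 FPKM, the deposited value scaled by gene length and library size. That left 32 members in the TIL experiment and 30 in each OT-I experiment. Scd1, a stearoyl-CoA desaturase, and Nr1h3, which encodes LXR alpha, were below 1 FPKM throughout, and Fdps and Abca1 were below it in the OT-I experiments.

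RNA was sequenced from CD8+ T cells sorted out of E.G7 tumors, an ovalbumin-expressing mouse lymphoma, in 14 libraries that form 7 groups of 2. The first experiment holds tumor-infiltrating lymphocytes (TILs) of the populations Bcl6+, DN and TIM-3+, sorted on day 21 after subcutaneous inoculation of Bcl6-RFP reporter mice. The other experiments hold OT-I cells, whose transgenic T cell receptor recognizes ovalbumin, recovered on about day 8 after transfer. One compares control (Prdm1neg) with Prdm1-overexpressing cells and the other control (Bcl6neg) with Bcl6-overexpressing cells, with controls and overexpressing cells transferred together. The labels give neither what DN stands for, nor the mice's age, nor the vector, nor the animals behind each replicate, so p-values reflect only how far these samples spread. Levels are in CPM (TMM-scaled, per 1e6 counts of tested genes), with both libraries of a group in replicate order. Changes are log2 fold changes with their standard error (SE) and the Benjamini-Hochberg adjusted p of the edgeR quasi-likelihood test over all tested genes, called at 0.05.

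Cholesterol is built from acetyl-CoA through the mevalonate pathway to squalene, and from squalene through lanosterol to cholesterol. When membrane sterol is low, the escort protein SCAP carries SREBP to the Golgi, where it is cut, and the released factor enters the nucleus and switches on the synthesis genes. When sterol is plentiful, INSIG proteins hold SCAP and SREBP in the endoplasmic reticulum. LXR receptors are switched on by oxidized sterols and drive genes that export cholesterol or lower its uptake. Activated and dividing T cells are known to raise both sterol and fatty acid synthesis as they build membrane.

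Total counts ranged from 18309162 to 22322079 per library. Bcl6, a transcriptional repressor, measured 429 and 408 CPM in Bcl6+ TILs, 90.8 and 94.9 in DN and 14.9 and 18.2 in TIM-3+ TILs, and 94.2 and 67.6 CPM in Bcl6-overexpressing OT-I cells against 4.11 and 3.84 in their controls. Prdm1, the gene of the repressor Blimp-1, measured 158 and 195 CPM in Prdm1-overexpressing cells against 110.5 and 90.6 in controls, a difference that the test did not call (adjusted p = 0.092). T cell markers were abundant in all libraries, at summed levels of 5426 to 9982 CPM over 8 genes. Markers of macrophages and monocytes, 12 genes of which 8 to 9 were tested in an experiment, were detected and moved with the groups; Mrc1 in 1 TIM-3+ library was their only value of 0. Their summed level was 245 to 285 CPM in Bcl6+, 156 to 161 in DN and 56.5 to 73.8 in TIM-3+ TILs, 194 to 337 in Prdm1-overexpressing cells against 458 to 510.4 in controls, and 578 to 673 in Bcl6-overexpressing cells against 159.5 to 166 in controls. Cell cycle genes moved too: the sum over 15 of them was 1262 to 1276 CPM in Bcl6+, 1583 to 1681 in DN and 3660 to 3719 in TIM-3+ TILs. It was 3624 to 3735 in Prdm1-overexpressing cells against 3288 to 3390 in controls, with none of the 15 called. In Bcl6-overexpressing cells it was 2775 to 2799 against 3823 to 3836 in controls.

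Per length, the most abundant members in TILs were Abcg1, a sterol exporter, at a mean of 86.2 FPKM, and Acly, which makes cytosolic acetyl-CoA from citrate, at 81.9 FPKM. Scd2, the main stearoyl-CoA desaturase found in these cells, followed at 47.7 FPKM, and Ebp, the sterol isomerase, at 41.7 FPKM. Among the transcription factors, Srebf2, which encodes SREBP2, averaged 30.3 FPKM and Srebf1, which encodes SREBP1, 15.3 FPKM. Nr1h2, which encodes LXR beta, stood at 39.6 FPKM where Nr1h3 stood at 0.47. The least abundant tested members were Tm7sf2, a sterol reductase, at 1.06 FPKM and Fdps, farnesyl diphosphate synthase, at 1.42 FPKM. In the OT-I experiments Acly was the most abundant member, at 63.3 and 56.5 FPKM, while Scd2 stood at 8.82 and 15.3 FPKM in the Prdm1 and the Bcl6 experiment. Levels were not tested between experiments, which were aligned and normalized separately.

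The promoters of 6 SREBP targets are shown because SREBP acts there; they were chosen from 2 comparisons after their values were seen. Hmgcs1, Cyp51 and Insig1 were higher in Bcl6+ than in TIM-3+ TILs, and Msmo1, Sc5d and Idi1 fell the most in Bcl6-overexpressing OT-I cells. Each line gives the 250 bases before the RefSeq start, 5′ to 3′ on the gene's strand, with coordinates of build GRCm38.p6. Capitals mark CCAAT boxes, searched as CCAAT on both strands and so also read as ATTGG, and the core of the sterol regulatory element, searched as TCACNCCAC on both strands.
Hmgcs1, chr13:119690101-119690350, plus strand: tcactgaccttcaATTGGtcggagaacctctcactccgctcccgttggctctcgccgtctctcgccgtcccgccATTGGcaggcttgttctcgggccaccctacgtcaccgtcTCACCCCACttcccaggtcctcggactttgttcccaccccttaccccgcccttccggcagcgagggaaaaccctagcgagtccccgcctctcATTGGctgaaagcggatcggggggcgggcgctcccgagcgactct
Cyp51, chr5:4104698-4104947, minus strand: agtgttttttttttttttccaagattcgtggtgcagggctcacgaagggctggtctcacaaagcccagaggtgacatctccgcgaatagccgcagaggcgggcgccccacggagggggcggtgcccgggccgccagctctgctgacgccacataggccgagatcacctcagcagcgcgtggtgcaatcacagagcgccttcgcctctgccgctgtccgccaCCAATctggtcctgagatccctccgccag
Insig1, chr5:28071162-28071411, plus strand: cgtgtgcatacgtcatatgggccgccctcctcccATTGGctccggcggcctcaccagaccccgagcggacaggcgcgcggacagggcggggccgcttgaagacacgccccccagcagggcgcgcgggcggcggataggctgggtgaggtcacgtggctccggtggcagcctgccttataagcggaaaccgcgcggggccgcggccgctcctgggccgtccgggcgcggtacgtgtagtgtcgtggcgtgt
Msmo1, chr8:64733579-64733828, minus strand: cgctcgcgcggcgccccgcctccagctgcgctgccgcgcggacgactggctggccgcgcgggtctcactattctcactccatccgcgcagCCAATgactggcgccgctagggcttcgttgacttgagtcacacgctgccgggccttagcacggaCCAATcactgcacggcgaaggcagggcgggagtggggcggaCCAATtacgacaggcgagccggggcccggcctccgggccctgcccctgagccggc
Sc5d, chr9:42264301-42264550, minus strand: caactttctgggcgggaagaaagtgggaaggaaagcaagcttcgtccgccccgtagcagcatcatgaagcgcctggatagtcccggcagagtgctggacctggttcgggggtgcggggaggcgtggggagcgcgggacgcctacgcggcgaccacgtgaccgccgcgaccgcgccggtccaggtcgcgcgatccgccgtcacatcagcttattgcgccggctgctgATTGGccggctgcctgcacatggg
Idi1, chr13:8885356-8885605, plus strand: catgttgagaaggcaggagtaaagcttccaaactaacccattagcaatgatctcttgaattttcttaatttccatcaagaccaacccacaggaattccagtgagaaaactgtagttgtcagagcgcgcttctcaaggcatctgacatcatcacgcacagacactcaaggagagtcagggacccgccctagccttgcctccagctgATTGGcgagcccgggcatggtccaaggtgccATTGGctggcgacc
The CCAAT box, bound by the factor NF-Y, was in all 6. It lay 237, 176 and 45 bases before the start of Hmgcs1, 160, 96 and 55 before Msmo1, 45 and 14 before Idi1, 29 before Cyp51, 24 before Sc5d and 216 before Insig1. Only Hmgcs1 had the sterol element core, 137 bases before its start, and it overlapped no CCAAT box. RefSeq gave a promoter for 27 of the 34 members. Counted from 250 bases before to 50 after the start, a CCAAT box was in 17 of the 19 SREBP targets with a promoter (89.5%) and in 21 of the 27 members (77.8%), against 41.06% of 27025 genes and 43.64% of the 7921 genes tested in TILs that had a promoter. The sterol element core was in 1 of 27 members, against 1.44% of all genes. The LXR direct repeat, 2 copies of AGGTCA spaced by 4 bases, was in none of the members and in 4 of the 27025 genes. A match is a description of the sequence, not evidence of binding, and these letters may lie outside the window.

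The first comparison set the Bcl6+ against the TIM-3+ population. Bcl6+ cells held more RNA for 4 enzymes of sterol synthesis, Hmgcs1, Sqle, Cyp51 and Msmo1, for the sterol sensor Insig1 and for the sterol exporter Abca1. They held less for the later isomerase Ebp, the sterol carrier Stard4 and the mevalonate enzyme Pmvk. Over all 32 tested members, 10 were called higher and 3 lower, 40.6% of them. Of the 9748 tested genes 38.6% were called in this comparison, 19.1% higher and 19.6% lower, so the number of members called was near the background. With total counts in place of TMM the members split 13 higher and 2 lower, and on log2(TPM + 1) 14 and 2, where the median of all genes shifted from 0.01 to 0.20 and 0.26. Of the 13 calls, 10 held in all 13 other settings tried, and Pmvk, Acly and Fasn did not.

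Of the sterol enzymes, 4 were called higher in Bcl6+ cells. Hmgcs1 (ENSMUSG00000093930, mm10 chromosome 13, 119690379 to 119708260, plus strand), the synthase that makes HMG-CoA, measured 76.3 and 90.3 CPM in Bcl6+ against 42.6 and 52.6 in TIM-3+ TILs. The groups did not overlap, with a 1.75-fold difference (log2 0.81, SE 0.18, adjusted p = 0.0032). Gm48342, a gene on the opposite strand, overlaps 12.1% of the exonic bases of Hmgcs1. Sqle (ENSMUSG00000022351, chromosome 15, 59315077 to 59331192, plus strand), squalene epoxidase and a rate-limiting step, measured 72.7 and 83.5 against 48.7 and 32.6 CPM, 1.92-fold higher (log2 0.94, SE 0.17, adjusted p = 0.00066). Cyp51 (ENSMUSG00000001467, chromosome 5, 4081145 to 4104746, minus strand), which removes the 14-alpha methyl group of lanosterol, measured 97.2 and 106 against 52.7 and 58.3 CPM. Both Bcl6+ libraries of Cyp51 were above both TIM-3+ libraries (log2 0.88, SE 0.13, adjusted p = 7.7e-05). Msmo1 (ENSMUSG00000031604, chromosome 8, 64718139 to 64733792, minus strand), a methylsterol oxidase that removes further methyl groups of the ring, measured 69.6 and 57.3 against 36.9 and 39.6 CPM (log2 0.73, SE 0.17, adjusted p = 0.0042).

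Not every step moved that way. Ebp (ENSMUSG00000031168, chromosome X, 8185329 to 8193512, minus strand), the isomerase that shifts the double bond of the sterol ring, measured 71.2 and 77.7 CPM in Bcl6+ against 143 and 135 in TIM-3+ TILs. It was 1.87-fold lower in Bcl6+ cells, the most significant change of any sterol enzyme here (log2 -0.90, SE 0.11, adjusted p = 2.2e-05). Pmvk, phosphomevalonate kinase, measured 15.1 and 18.8 against 26.0 and 25.7 CPM, also without overlap (log2 -0.61, SE 0.23, adjusted p = 0.046). Its call was lost without the first Bcl6+ library (adjusted p = 0.19), without either TIM-3+ library (0.13 and 0.11), with total counts (0.15) and on log2(TPM + 1) (0.070). Of the 7 mevalonate genes 1 was called higher and 1 lower, and of the 11 steps from squalene to cholesterol 3 were called higher and 1 lower. Acat2, which starts the pathway by joining 2 acetyl-CoA, measured 23.6 and 24.7 against 23.7 and 23.2 CPM and overlapped. Dhcr7, the final reductase, measured 70.2 and 96.2 against 75.2 and 65.9 CPM and was not called (log2 0.24, SE 0.16). It was called higher without the first Bcl6+ library (log2 0.45, adjusted p = 0.039), with total counts (0.043) and on log2(TPM + 1) (0.035).

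Insig1 (ENSMUSG00000045294, chromosome 5, 28071363 to 28078662, plus strand), an SREBP target that in turn retains SCAP, measured 88.2 and 86.9 CPM in Bcl6+ against 40.04 and 38.1 in TIM-3+ TILs. This 2.24-fold difference was the largest among the 24 SREBP targets tested here as members (log2 1.16, SE 0.13, adjusted p = 7.1e-06). Stard4, a soluble protein that carries cholesterol between membranes, moved the other way, at 54.0 and 40.9 against 81.0 and 79.6 CPM (log2 -0.76, SE 0.15, adjusted p = 0.0012). Of the 4 tested genes of the SREBP machinery none was called by edgeR in this comparison. Srebf2 measured 218 and 280.2 against 225 and 214 CPM (log2 0.18, SE 0.10, adjusted p = 0.19). It was called higher without the first Bcl6+ library (log2 0.35, adjusted p = 0.0083), with total counts (0.012) and on log2(TPM + 1) (0.013). Srebf1 measured 84.3 and 99.0 against 107 and 91.3 (log2 -0.12, SE 0.13). Scap and Insig2, the second INSIG gene, had changes of -0.03 (SE 0.19) and 0.05 (SE 0.17), with overlapping libraries.

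Of the 4 tested genes of fatty acid synthesis, 3 were called higher in Bcl6+ cells. Scd2 (ENSMUSG00000025203, chromosome 19, 44293674 to 44306864, plus strand), which puts a double bond into stearoyl-CoA, measured 341 and 349.8 CPM against 240.3 and 252, and did not overlap (log2 0.49, SE 0.07, adjusted p = 1.0e-04). It shares a stretch of 623 bases of at least 95% identity with Scd1, which was below 1 FPKM throughout. Fasn, fatty acid synthase, measured 163 and 169 against 126 and 139 CPM (log2 0.32, SE 0.10, adjusted p = 0.019), and Acly 466 and 513 against 441 and 416 CPM (log2 0.19, SE 0.07, adjusted p = 0.048). These last changes were small. The call of Fasn was lost in 6 of 13 other settings, among them without the second Bcl6+ library (adjusted p = 0.071), without the first TIM-3+ library (0.13), and with the trends on GC content and length removed (log2 0.12, adjusted p = 0.32). That of Acly was lost in 9, among them without the second Bcl6+ library (log2 0.12, adjusted p = 0.25), without either TIM-3+ library (0.060 and 0.22) and with those trends removed (log2 0.07, adjusted p = 0.44). Removing those trends also moved the median log2 change of all genes, from 0.01 to -0.08. Acaca, the carboxylase that makes malonyl-CoA, measured 31.9 and 33.3 against 38.2 and 33.3 CPM and was not called. Over the 24 tested SREBP targets, 8 were higher and 3 lower, with a median log2 change of 0.21 against 0.01 over all tested genes.

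**Figure D1:**
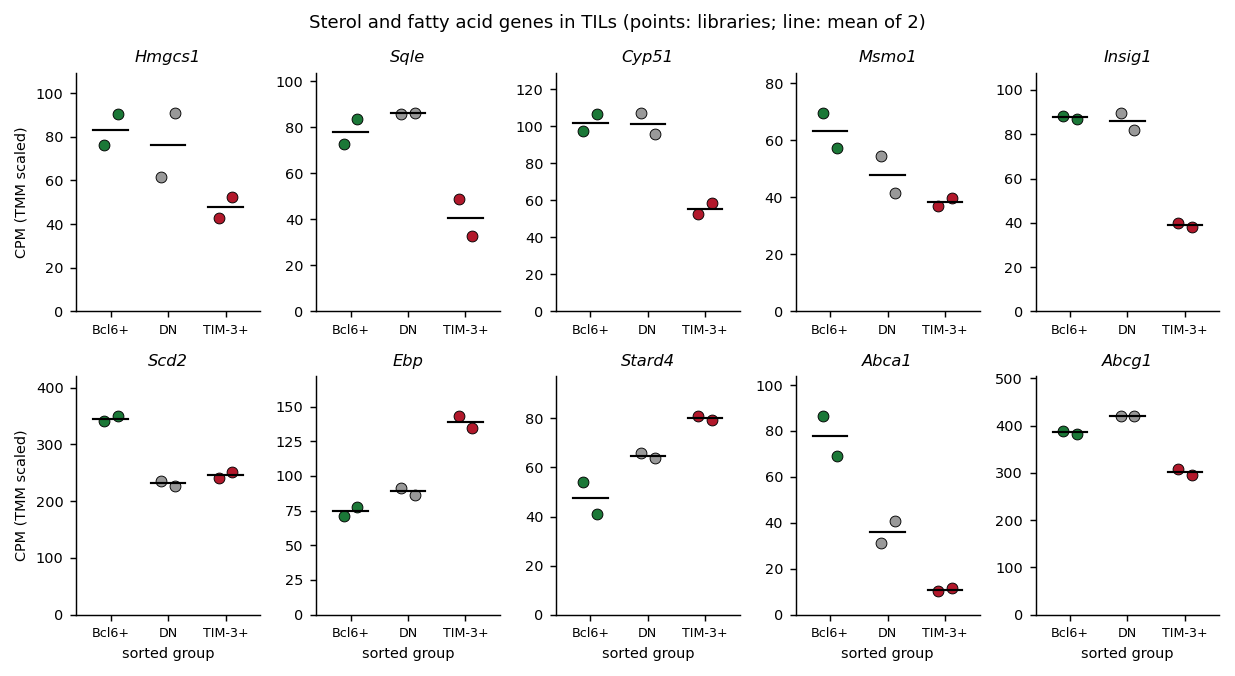
Levels of 10 members in TILs, as CPM scaled by TMM on a linear axis from 0, by sorted group; points are the 2 libraries of a group and lines their mean. Insig1, Sqle and Cyp51 sit at like levels in Bcl6+ and DN cells and lower in TIM-3+ cells. Ebp is higher in TIM-3+ cells than in the other groups, and Stard4 is lower in Bcl6+ cells than in the other groups. Abca1 falls in steps from 86.5 and 69.2 CPM in Bcl6+ to 10.04 and 11.8 CPM in TIM-3+ cells.

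The LXR targets did not move as 1 group. Abca1 (ENSMUSG00000015243, chromosome 4, 53030787 to 53159895, minus strand), which loads cholesterol onto apolipoprotein, measured 86.5 and 69.2 CPM in Bcl6+, 31.2 and 40.9 in DN and 10.04 and 11.8 in TIM-3+ TILs. No library overlapped another group's, and Bcl6+ cells held 7.13 times as much as TIM-3+ cells (log2 2.83, SE 0.20, adjusted p = 8.9e-08). Abcg1 (ENSMUSG00000024030, chromosome 17, 31057675 to 31117988, plus strand), which exports sterol to lipoprotein particles, measured 389 and 383, 419.8 and 420.1, and 308 and 296 CPM in the same order. It was lowest in TIM-3+ cells and highest in DN cells, and the difference between Bcl6+ and TIM-3+ cells was 1.28-fold (log2 0.35, SE 0.07, adjusted p = 0.00070). Mylip, a ubiquitin ligase that marks lipoprotein receptors for degradation, measured 18.2 and 21.0, 30.9 and 36.6, and 25.8 and 15.3 CPM. Bcl6+ and TIM-3+ libraries of Mylip overlapped (log2 -0.07, SE 0.26). Nr1h2 overlapped between these groups (log2 0.12, SE 0.11) and was called higher with total counts (adjusted p = 0.040) and on log2(TPM + 1) (0.013), and Nr1h3 was at most 2.05 CPM in any TIL library. Summed macrophage and monocyte markers took the order of Abca1, and 8 of 8 tested were called higher in Bcl6+ than in TIM-3+ cells. Of these 8, 4 were called higher in Bcl6+ than in DN cells and 4 lower in TIM-3+ than in DN cells. In each comparison with DN cells, 1 marker changed the opposite way without a call. Lyz2, a lysozyme gene, measured 82.1 and 88.9, 62.8 and 61.8, and 26.7 and 16.2 CPM. Their part in the Abca1 difference was not tested. In bulk RNA, fewer cells of a type and less RNA per cell cannot be told apart.

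DN cells were compared with each of the other populations, and these contrasts share libraries with the one above. Between Bcl6+ and DN TILs only Scd2 and Abca1 were called among 32 tested members, both higher in Bcl6+ cells, or 6.25%. The background was 14.2% of all tested genes, 6.49% higher and 7.69% lower. Scd2 measured 341 and 349.8 CPM in Bcl6+ against 235 and 227 in DN cells (log2 0.58, SE 0.07, adjusted p = 8.3e-05), and Abca1 differed 2.16-fold (log2 1.11, SE 0.19, adjusted p = 0.0010). Both calls held in all 13 other settings. Insig1 measured 88.2 and 86.9 against 89.6 and 81.9 CPM (log2 0.03, SE 0.13), and Cyp51 97.2 and 106 against 107 and 95.6 CPM (log2 0.01, SE 0.12). Both genes overlapped between Bcl6+ and DN cells. Sqle was slightly below DN in both Bcl6+ libraries and not called (log2 -0.14, SE 0.17). Mylip and Stard4 had no overlap but missed the threshold, with log2 -0.79 (SE 0.25, adjusted p = 0.057) and log2 -0.45 (SE 0.15, adjusted p = 0.065). With DESeq2 both were called, for 4 members in all, 2 higher and 2 lower. Without the first Bcl6+ library 4 members were called as well, among them Srebf2 (log2 0.36, adjusted p = 0.018).

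TIM-3+ cells differed from DN cells in 8 of 32 members, 25% of them, 6 lower and 2 higher, where 28.2% of all tested genes were called, 14.9% higher and 13.2% lower. Insig1 fell from 89.6 and 81.9 CPM in DN to 40.04 and 38.1 in TIM-3+ cells (log2 -1.13, SE 0.13, adjusted p = 1.7e-05). Sqle fell from 85.9 and 86.3 to 48.7 and 32.6 CPM (log2 -1.08, SE 0.17, adjusted p = 0.00034), and Cyp51 from 107 and 95.6 to 52.7 and 58.3 CPM (log2 -0.87, SE 0.13, adjusted p = 0.00013). In all 3 of these genes both TIM-3+ libraries were below both DN libraries. Hmgcs1 fell as well (log2 -0.68, SE 0.18, adjusted p = 0.013), though its DN libraries were far apart at 61.5 and 91.0 CPM, and the call was lost without the second DN library (log2 -0.37, adjusted p = 0.24) or the first TIM-3+ library (adjusted p = 0.087). Abca1 was 3.31-fold lower (log2 -1.73, SE 0.20, adjusted p = 1.9e-05) and Abcg1 1.39-fold lower (log2 -0.48, SE 0.07, adjusted p = 9.2e-05). Ebp rose from 91.6 and 85.9 to 143 and 135 CPM (log2 0.65, SE 0.11, adjusted p = 0.00061).

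Hsd17b7, a sterol ketoreductase, rose from 15.6 and 12.6 CPM in DN to 23.3 and 24.3 in TIM-3+ cells (log2 0.76, SE 0.24, adjusted p = 0.031). That call was lost without any single library of the 2 groups, with adjusted p from 0.069 without the first DN library to 0.21 without the second, and 0.075 and 0.10 without the first and second TIM-3+ library. Mylip lay at the threshold (log2 -0.72, SE 0.25, adjusted p = 0.0504) and was called lower without the first TIM-3+ library (log2 -1.14, adjusted p = 0.0079). The split of 2 higher and 6 lower became 1 and 10 with total counts and 1 and 8 on log2(TPM + 1), where the median of all genes moved from -0.01 to -0.18 and -0.19. With the GC and length trends removed it became 4 and 6, where the median of all genes moved to 0.08. Calls over all tested genes went from 1454 higher and 1291 lower to 1934 higher and 1045 lower in that setting. In the main test the 24 tested SREBP targets had a median of -0.17, against -0.01 over all tested genes. TIM-3+ cells held more of all 15 cell cycle genes than either of the other populations. Stromal and endothelial markers, of which 1 of 7 was tested, summed to 38.2 to 46.3 CPM in TIM-3+, 85.8 to 96.05 in DN and 87.1 to 116 in Bcl6+ cells, and erythroid markers, of which 3 were tested, to 16.6 to 23.4, 58.8 to 61.7 and 33.9 to 37.7 CPM. Their part in the sterol gene differences was not tested.

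**Figure D2:**
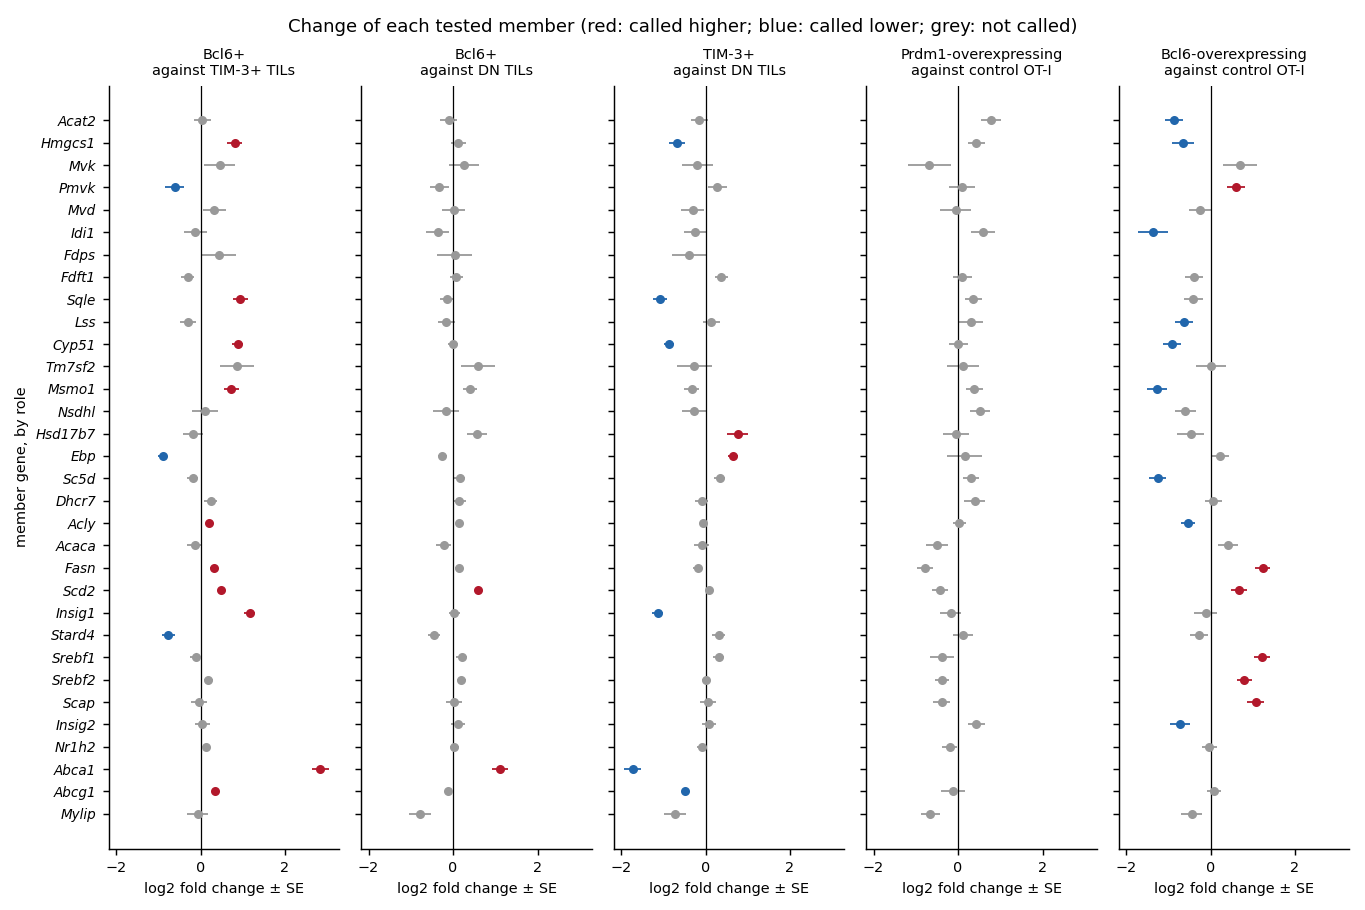
Log2 fold change with SE of each tested member, ordered by role, in the 5 comparisons, all on the same horizontal axis; red and blue points were called higher and lower at an adjusted p of 0.05 by edgeR and grey points were not. The Prdm1 comparison has no called member, and Cyp51, Msmo1 and Hmgcs1 are called higher in Bcl6+ against TIM-3+ TILs and lower in Bcl6-overexpressing against control OT-I cells.

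Other genes of lipid metabolism were counted in the same fits. Between Bcl6+ and TIM-3+ TILs, 19.1% of all tested genes were called higher and 19.6% lower. Of 8 tested genes of fatty acid elongation and desaturation, 2 were called higher and 4 lower in Bcl6+ than in TIM-3+ TILs. Elovl6, which elongates palmitate and is an SREBP target, was 3.31-fold higher (log2 1.73, SE 0.28, adjusted p = 0.00020), while Elovl1 and Tecr were lower (log2 -0.48, SE 0.09, and log2 -0.39, SE 0.08). Of 12 genes of fatty acid supply and activation, 4 were higher and 4 lower. Acsl3, an acyl-CoA synthetase, measured 16.0 and 9.92 CPM in Bcl6+ and 11.8 and 12.5 in DN cells and had 1 read in each TIM-3+ library, too few for a fold change. The relatives Acsl4 and Acsl5 were lower in Bcl6+ cells (log2 -0.68, SE 0.09, and log2 -0.54, SE 0.07). Of 16 genes of sterol esterification and transport, 6 were higher and 3 lower: Gramd1b, which moves cholesterol from the plasma membrane to the endoplasmic reticulum, was higher (log2 1.11, SE 0.14), and Npc2 and Npc1, which release cholesterol from lysosomes, were lower (log2 -0.79, SE 0.09, and log2 -0.63, SE 0.17). Among genes of SREBP and sterol-sensor turnover, Erlin1 was higher (log2 1.36, SE 0.20) and Ube2g2 was lower (log2 -0.43, SE 0.09). Of 10 sterol side-branch genes only Lbr, the lamin B receptor with sterol reductase activity, was called, lower in Bcl6+ cells (log2 -0.63, SE 0.07). Of 4 other LXR targets 2 were lower, Arl4c (log2 -0.73, SE 0.21) and Abca7 (log2 -0.44, SE 0.12), and none was higher.

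Between Bcl6+ and DN cells, Erlin1 (log2 0.85, SE 0.20), Gramd1b (log2 0.44, SE 0.14) and the elongation enzyme Hacd3 (log2 0.36, SE 0.07) were higher and Npc2, Gramd1a, Lpin1 and Arl4c were lower, with log2 changes of -0.63, -0.48, -0.71 and -0.86 (SE 0.09, 0.10, 0.12 and 0.21). Between TIM-3+ and DN cells, 5 of 8 elongation and desaturation genes were higher and 1, Elovl6, was lower (log2 -1.32, SE 0.27, adjusted p = 0.0025). Of all tested genes, 14.9% were called higher and 13.2% lower in that comparison. Gramd1a and Gramd1b were lower in TIM-3+ than in DN cells (log2 -0.86, SE 0.10, and log2 -0.67, SE 0.14), and Lipa, the lysosomal lipase that frees cholesterol from its esters, was higher (log2 0.70, SE 0.13).

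Prdm1 overexpression gave no called member in the main edgeR test. None of the 30 tested members passed an adjusted p of 0.05 in it, 4 (Acat2, Fasn, Srebf2 and Mylip) had an unadjusted p under 0.05, and DESeq2 called 1, Fasn. With the replicate number as a block, edgeR called 3, Acat2, Fasn and Mylip, though the labels do not say that these numbers pair libraries. Of the 9947 tested genes, the main test called 1.36%, 1.16% higher and 0.201% lower. DESeq2 called 586 of all tested genes and the blocked fit 1659, so each count of members has its own background. Fasn measured 58.4 and 77.0 CPM in Prdm1-overexpressing cells against 115 and 118 in controls. Both overexpressing libraries were below both controls (log2 -0.78, SE 0.20, adjusted p = 0.10 in edgeR and 0.029 in DESeq2). Fasn was also called without the second overexpressing library (log2 -1.08, adjusted p = 0.031), and Abcg1 without the first (log2 -0.68, adjusted p = 0.049). 

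Acat2 measured 81.7 and 93.3 CPM against 41.2 and 60.4 (log2 0.78, SE 0.23, adjusted p = 0.14), and Idi1, which isomerizes isopentenyl diphosphate, 17.6 and 18.7 against 12.4 and 11.6 CPM (log2 0.59, SE 0.28, adjusted p = 0.31). Neither overlapped, but both missed the threshold in the main test. Of the 11 steps from squalene to cholesterol 10 had a positive change, with a median of 0.30 against 0.02 over all tested genes. The 4 tested genes of fatty acid synthesis had a median of -0.46. With the trends on GC content and length removed, Sc5d went from 0.31 to 0.12 and Msmo1 from 0.39 to 0.24. Cyp51 went from 0.01 to -0.14 and Hsd17b7 from -0.05 to -0.22. Lss, at 0.30 and 0.28, and Dhcr7, at 0.39 in both, hardly changed. The rest of these steps moved down: Sqle from 0.36 to 0.27, Nsdhl from 0.53 to 0.36 and Ebp from 0.16 to 0.06. Likewise, Fdft1 went from 0.10 to 0.05 and Tm7sf2 from 0.12 to 0.07. The median of all genes went from 0.02 to -0.04. No member was called in that setting. Nsdhl, a sterol dehydrogenase, measured 52.5 and 46.9 against 29.1 and 39.95 CPM (log2 0.53, SE 0.24), and Scd2 40.4 and 45.2 against 56.1 and 59.2 CPM (log2 -0.43, SE 0.20). Ebp varied within groups, at 185.5 and 69.8 against 135 and 94.2 CPM, so no difference was detectable (log2 0.16, SE 0.42). Mylip measured 33.0 and 29.0 against 45.4 and 52.2 CPM (log2 -0.65, SE 0.22, adjusted p = 0.17). Abca1 was below 1 FPKM, at 5.48 and 5.27 against 8.75 and 3.17 CPM. None of the genes of the other pathway lists was called in this comparison, where 1.36% of all tested genes were.

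Under Bcl6 overexpression the sterol enzymes Sc5d, Msmo1, Idi1, Cyp51, Acat2, Lss and Hmgcs1 fell, and Pmvk rose. Of the 6 tested mevalonate genes 3 fell and 1 rose, and of the 11 steps from squalene to cholesterol 4 fell and none rose. Fasn and Scd2 rose and Acly fell, and of the 4 machinery genes Srebf1, Srebf2 and Scap rose and Insig2 fell. Of 30 tested members, 6 were called higher and 9 lower, 50% of them. The background in this comparison was 48.8% of 9669 tested genes, 25.4% higher and 23.4% lower, so the number of members called was again near it. Over the 23 tested SREBP targets, 3 rose and 8 fell, with a median of -0.40 against 0.00 over all genes.

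Sc5d (ENSMUSG00000032018, chromosome 9, 42251595 to 42264256, minus strand), the sterol desaturase near its end, measured 29.5 and 36.7 CPM in Bcl6-overexpressing against 77.3 and 79.6 in control cells, 2.37-fold lower (log2 -1.25, SE 0.20, adjusted p = 3.8e-05). Msmo1 measured 17.6 and 15.3 against 43.2 and 36.1 CPM (log2 -1.27, SE 0.24, adjusted p = 0.00017). Idi1 (ENSMUSG00000058258, chromosome 13, 8885501 to 8892451, plus strand) measured 3.88 and 6.95 against 13.5 and 14.5 CPM (log2 -1.37, SE 0.35, adjusted p = 0.0030). In these genes the groups were well apart, though annotated copies of Idi1 (Gm13502, Gm35570 and Gm48574) could share its reads. Cyp51 measured 24.5 and 31.4 against 52.6 and 53.4 CPM (log2 -0.92, SE 0.22, adjusted p = 0.0015), and Acat2 30.8 and 26.0 against 55.9 and 47.1 CPM (log2 -0.86, SE 0.22, adjusted p = 0.0026). Acat2 shares a stretch of at least 95% identity with Acat3 and Tcp1, so its counts are uncertain, and its call was lost without the first control library (adjusted p = 0.058). Lss, which closes the rings of squalene epoxide, and Hmgcs1 fell by 0.63 (SE 0.22, adjusted p = 0.023) and 0.66 (SE 0.26, adjusted p = 0.040) on the log2 scale. Insig2 fell by 0.72 on the log2 scale (SE 0.23, adjusted p = 0.016) and Acly by 0.52 (SE 0.16, adjusted p = 0.012).

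Fasn (ENSMUSG00000025153, chromosome 11, 120805846 to 120824547, minus strand) measured 279 and 255 CPM in Bcl6-overexpressing against 103 and 123 in control cells, 2.36-fold higher (log2 1.24, SE 0.17, adjusted p = 6.8e-06). Srebf1 (ENSMUSG00000020538, chromosome 11, 60199089 to 60222581, minus strand) measured 145 and 110.1 against 52.0 and 58.1 CPM (log2 1.21, SE 0.19, adjusted p = 3.2e-05). Scap measured 167 and 115 against 58.3 and 76.1 CPM (log2 1.07, SE 0.21, adjusted p = 0.00023), with 13.2% of its exonic bases shared with a gene on the opposite strand. None of these overlapped between groups. Srebf2 measured 315 and 259 against 139 and 191 CPM (log2 0.80, SE 0.19, adjusted p = 0.0013), Scd2 90.5 and 121 against 67.6 and 66.0 CPM (log2 0.67, SE 0.19, adjusted p = 0.0070), and Pmvk 51.6 and 41.0 against 32.4 and 28.5 CPM (log2 0.61, SE 0.22, adjusted p = 0.027). Insig1, called between TIL groups, measured 17.8 and 32.1 against 27.3 and 27.0 CPM and was not called (log2 -0.12, SE 0.26). Among the LXR targets, Abcg1 overlapped at 162 and 174 against 171 and 148 CPM (log2 0.07, SE 0.17), Mylip was not called (log2 -0.45, SE 0.25, adjusted p = 0.14), and Abca1, below 1 FPKM, measured 17.0 and 8.41 against 6.59 and 5.87 CPM.

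**Figure D3:**
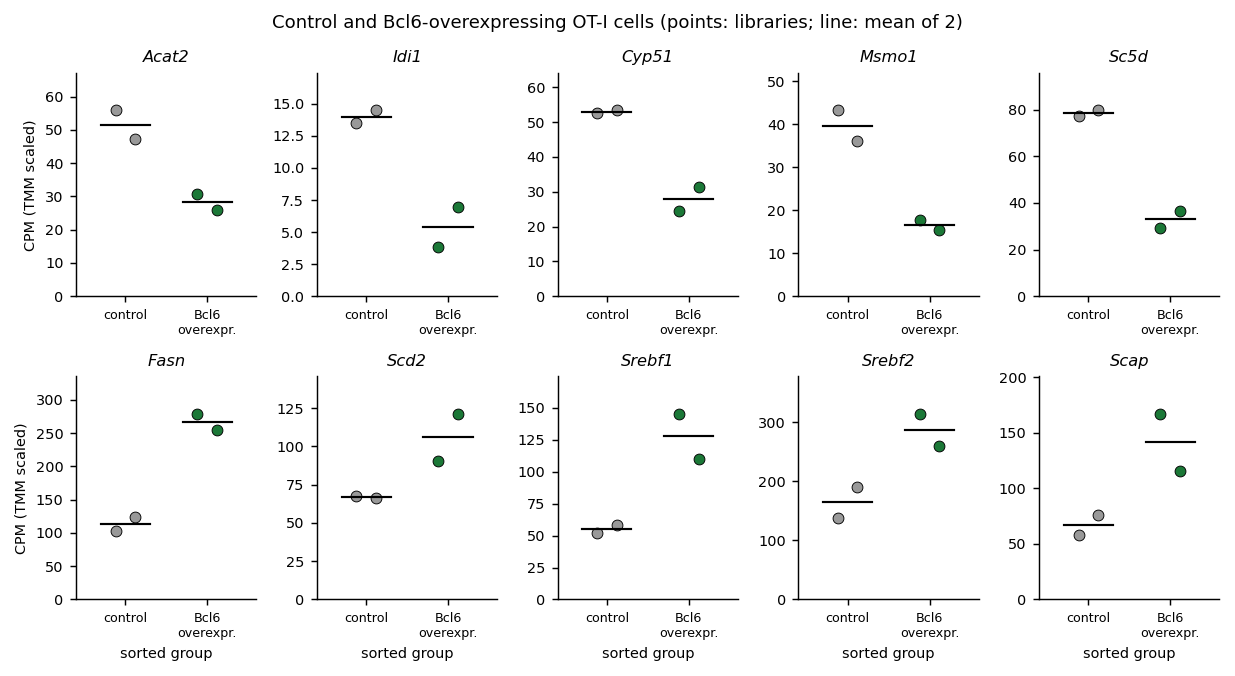
Levels of 10 members in control and Bcl6-overexpressing OT-I cells, as CPM scaled by TMM on a linear axis from 0; points are the 2 libraries of a group and lines their mean. Acat2, Idi1, Cyp51, Msmo1 and Sc5d are lower and Fasn, Scd2, Srebf1, Srebf2 and Scap higher in both overexpressing libraries than in both controls.

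In this experiment the change of a gene went with the base composition of its transcript. Across all tested genes the median log2 change ran from -0.60 in the lowest of 10 bins of GC content (median 39.7%) to 0.81 in the highest (59.1%). Some members lay along that trend: Idi1, Sc5d and Msmo1, which fell, have GC contents of 41.9%, 42.9% and 44.7%. Fasn, Srebf2, Srebf1 and Scap, which rose, have 57.9%, 57.9%, 58.4% and 59.1%. Others lay off it, such as Nr1h2 (60.6% GC, log2 -0.03) and Acat2 (49.6% GC, log2 -0.86). Each library's trends on GC content and length were then removed, an alternative chosen after seeing the data. In that setting 15 members were again called, but 3 higher and 12 lower, with a median of -0.12 over all genes. Calls over all tested genes turned the same way, from 2459 higher and 2261 lower in the main test to 2106 higher and 2878 lower. Idi1, Msmo1, Sc5d, Cyp51 and Acat2 stayed lower, with log2 changes of -0.87, -0.91, -0.76, -0.64 and -0.99 (adjusted p from 3.9e-05 for Acat2 to 0.025 for Idi1). Fasn, Srebf1 and Scd2 stayed higher at 0.50, 0.54 and 0.68, while Srebf2 and Scap were no longer called (log2 0.15, adjusted p = 0.34, and log2 0.27, adjusted p = 0.12), nor was Hmgcs1 (log2 -0.20, adjusted p = 0.44). Pmvk reversed to -0.53 (adjusted p = 0.014). Mvd, mevalonate diphosphate decarboxylase, with 59.0% GC, went from -0.24 without a call to -1.46 (adjusted p = 4.1e-05), and Nr1h2, with 60.6% GC, from -0.03 to -0.97 (adjusted p = 2.3e-07). Between Bcl6+ and TIM-3+ TILs the medians of the lowest and highest bins were -0.01 and 0.03. In the Prdm1 experiment they were 0.19 and -0.25.

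**Figure D4:**
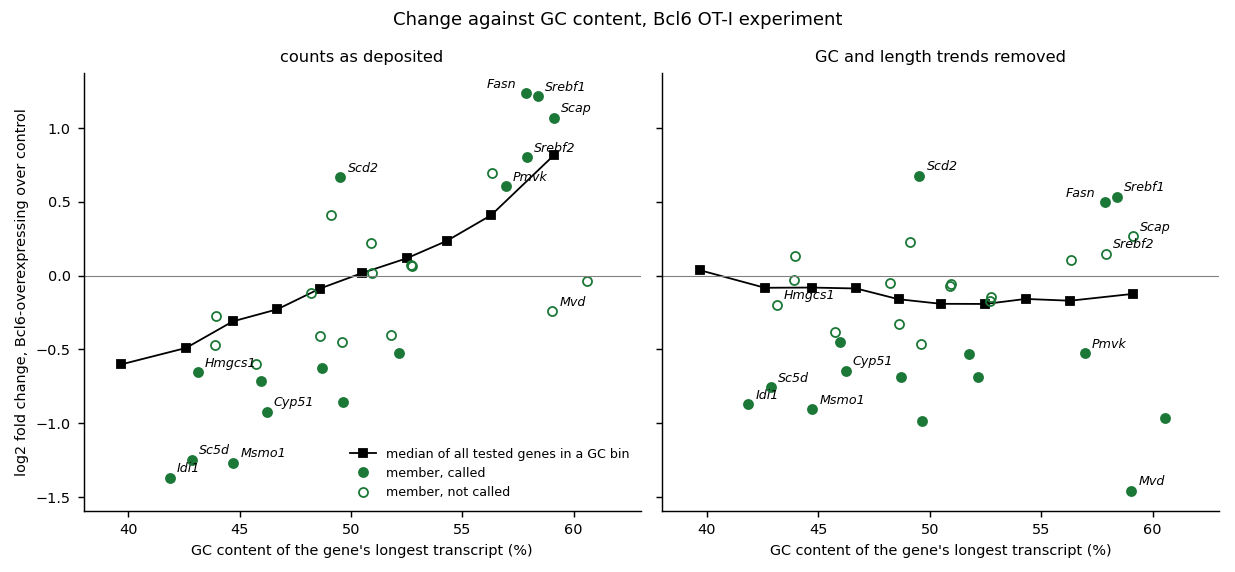
Log2 fold change between Bcl6-overexpressing and control OT-I cells against the GC content of each gene's longest transcript, from the deposited counts (left) and with trends on GC content and length removed (right); squares are medians of all tested genes in 10 bins of GC content, and circles are members, filled where called. The rise of the medians from -0.60 to 0.81 on the left is not seen on the right. There they run from 0.04 in the lowest bin through -0.19 to -0.12 in the highest. On the right Sc5d, Idi1, Msmo1 and Cyp51 are still called lower and Srebf2 and Scap are not called.

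Single libraries also mattered in the Bcl6 experiment. Leaving out the first or the second control library lowered the number of members called. It also lowered the number of all tested genes called. Of the 15 calls, 6 held in all 13 other settings: Idi1, Cyp51, Msmo1, Sc5d, Fasn and Srebf1. Hmgcs1 was lost without the first overexpressing library (log2 -0.31, adjusted p = 0.31) or either control library (0.10 and 0.12), and stood at -1.14 without the second overexpressing library. Without that library Nsdhl was called lower (log2 -0.94, adjusted p = 0.0029) and Mvk, mevalonate kinase, higher (log2 1.25, adjusted p = 0.0025). Lss and Pmvk were lost without the first overexpressing library (0.082 and 0.16), the first control (0.096 and 0.079) or the second (0.14 and 0.20), and Pmvk also on log2(TPM + 1) (0.27). Scd2 was lost without the second overexpressing library (log2 0.43, adjusted p = 0.056) or either control (0.055 and 0.068), and on log2(TPM + 1) (log2 0.31, adjusted p = 0.20). Acly was lost without either control (0.081 and 0.17), Srebf2 without the first control (0.090), and Insig2 without the first overexpressing library (0.087) or the first control (0.20). On log2(TPM + 1), where the median of all genes was -0.32, the members split 4 higher and 16 lower.

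Markers of other cells moved with Bcl6 overexpression too. All 9 tested macrophage and monocyte markers were called higher, with Lyz2 at 428 and 372 against 81.4 and 76.5 CPM. Neutrophil markers summed to 28.8 to 29.8 against 1.52 to 3.37 CPM, with S100a8 at 0 in both controls, and erythroid markers to 13.0 to 14.9 against 0.99 to 1.18 CPM, with Hba-a1 and Hbb-bs at 0 in both controls. Other lists were lower: stromal and endothelial markers summed to 64.9 to 68.2 against 115 to 124.5 CPM, with Col1a1, a collagen gene, called lower (log2 -4.97, SE 0.44), and dendritic cell markers to 14.4 to 19.3 against 29.2 to 32.8 CPM, with Xcr1, a chemokine receptor gene and the only one of 6 tested, called lower (log2 -1.73, SE 0.33). Of the 15 cell cycle genes 9 were called lower and 1 higher. Their part in the changes of the sterol and fatty acid genes was not tested.

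Of the 6 other pathway lists, 3 had more members that fell than rose in Bcl6-overexpressing cells, and 3 split evenly. Of all tested genes, 25.4% were called higher and 23.4% lower. Lbr fell from 345 and 391 to 118 and 131 CPM (log2 -1.57, SE 0.17, adjusted p = 2.3e-07), and Ggps1, which makes geranylgeranyl diphosphate from the mevalonate pathway, by 1.08 on the log2 scale (SE 0.22). Fdx1, a ferredoxin of mitochondrial sterol hydroxylation, rose from 8.92 and 4.74 to 17.9 and 20.4 CPM (log2 1.49, SE 0.33). Soat1, which esterifies cholesterol for storage, fell from 87.1 and 94.2 to 33.4 and 39.7 CPM (log2 -1.31, SE 0.20, adjusted p = 1.4e-05), and 5 of 16 genes of esterification and transport were lower and 3 higher. Of 9 fatty acid supply genes 4 were lower, among them Acss2, which makes acetyl-CoA from acetate (log2 -1.05, SE 0.22), Acsl5 (log2 -0.97, SE 0.18) and Lpin1 (log2 -0.97, SE 0.19), and 1 was higher. Elongation and desaturation genes split 2 higher and 2 lower of 8, with Hacd2 at 1.15 (SE 0.21) and Hacd3 at -0.88 (SE 0.17). Of 8 turnover genes 3 were lower, Erlin2, Rnf139 and Ube2g2, and 1 was higher. The GC trend applies to these values as well, and they were not recomputed without it.

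Set side by side, 4 sterol enzymes and Acly were called with opposite signs in Bcl6+ against TIM-3+ TILs and Bcl6-overexpressing against control OT-I cells. None of these genes was called in Bcl6+ against DN TILs. There Cyp51 changed by 0.01, Hmgcs1 by 0.13, Msmo1 by 0.40, Pmvk by -0.33 and Acly by 0.13 on the log2 scale. Fasn was not called there either, at 0.13, while Scd2 was called higher. Cyp51 changed by 0.88 (SE 0.13) in Bcl6+ against TIM-3+ TILs and by -0.92 (SE 0.22) in Bcl6-overexpressing against control OT-I cells, Msmo1 by 0.73 (SE 0.17) and -1.27 (SE 0.24), and Hmgcs1 by 0.81 (SE 0.18) and -0.66 (SE 0.26). The fall of Hmgcs1 in OT-I cells lost its call in 7 of 13 other settings. Pmvk changed by -0.61 (SE 0.23) and 0.61 (SE 0.22), and Acly by 0.19 (SE 0.07) and -0.52 (SE 0.16), with calls that were lost in other settings in both contrasts. With GC and length trends removed, the signs of Pmvk were not opposite. It was then called lower in both contrasts, at -0.73 in TILs and -0.53 in OT-I cells. Fasn and Scd2 were called higher in both contrasts, at 0.32 (SE 0.10) and 1.24 (SE 0.17), and at 0.49 (SE 0.07) and 0.67 (SE 0.19). The Fasn call in TILs was lost in 6 of 13 settings, and its change in OT-I cells was 0.50 with GC and length trends removed, while the Scd2 call held in all 13 in TILs and was lost in 4 in OT-I cells. The contrasts differ in cells, day and control group, and the difference between them was not tested.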

How the data were processed

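Each deposited table gives 1 library, with a raw count and an FPKM value per gene, per the file headers. For TILs the authors list Bowtie2, featureCounts, Subread, DESeq2 and edgeR, per the submitters' processing notes, and for OT-I cells RSEM, HISAT2, DESeq2 and featureCounts, with build mm10. The sources used here give no versions, no role for each tool and no strand setting; without strand, overlapping genes may share reads. The main test was edgeR 4.0.16 (R 4.3.3, two-sided) on the deposited counts with TMM, over genes whose mean reached 1 FPKM: 9748, 9947 and 9669 genes in the TIL, Prdm1 and Bcl6 experiments, with a biological coefficient of variation of 0.149, 0.227 and 0.164. One fit took the 6 TIL libraries, and separate fits the 4 libraries of each OT-I experiment. SE was the size of the log2 change divided by the root of the quasi-likelihood F. CPM uses the counts of tested genes as the library. Alternatives were DESeq2 1.42.0, other scalings, no filter, limma 3.58.1 on log2 values, a replicate block, each library left out, and loess trends on GC content and relative length (from count over FPKM) removed. Positions, GC content and near copies came from GENCODE M21, promoters from RefSeq. Every tested member may be named, and other pathway genes by smallest p, up to 3 per list. A gene of the turnover list is not reported here. Members and lists were chosen with earlier results of these data known. Scripts were tested on simulated data.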

Additional observations from a re-analysis of the deposited data

How the results depend on the processing

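Over all members, comparisons and alternatives, 1758 of 2028 recomputed log2 changes kept their direction and their side of the threshold, 59 lost a call, 51 gained one, 159 changed sign without a call and 1 reversed: Pmvk under Bcl6 overexpression, at -0.53 with GC and length trends removed. Members called between Bcl6+ and TIM-3+ TILs ranged from 10 to 14 when single libraries were left out, between Bcl6+ and DN TILs from 2 to 4, between TIM-3+ and DN TILs from 6 to 7, under Prdm1 overexpression from 0 to 1 and under Bcl6 overexpression from 7 to 16. DESeq2 called 4 members between Bcl6+ and DN TILs and 1 under Prdm1 overexpression. Genes called ranged from 736 to 1180 of a full 1383 between Bcl6+ and DN TILs, from 1700 to 2210 of 2745 between TIM-3+ and DN TILs and, under Prdm1 overexpression, from 3 to 784 of 135, so the Prdm1 count rests on single libraries. That count was 586 with DESeq2, 275 with its size factors, 294 with total counts, 44 without the FPKM filter, 609 on log2(TPM + 1) and 309 with GC and length trends removed. Under Bcl6 overexpression, leaving out a control library lowered the number of all genes called as well as that of members. A library left out leaves its group with 1 library, which is assumed to vary like the others.

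The labels do not say that replicate numbers mark shared animals. With the replicate number as a block, 12, 2 and 8 members were called in the TIL contrasts in the order above, 3 under Prdm1 overexpression (Acat2, Fasn and Mylip, with 1659 genes in all) and 16 under Bcl6 overexpression. Deviations of same-numbered libraries correlated at 0.0241, 0.000738 and 0.0320 in TILs, 0.323 for Prdm1 and -0.0644 for Bcl6 overexpression, across genes. With 2 libraries a group, a change that missed the threshold is not shown to be absent.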
